A study of Mus musculus with 2 samples.

Results

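Cytokines that signal through gp130 were described in TgS1 cells, a mouse Schwann cell line, with their receptors, the transcription factor STAT3 and its feedback inhibitor. The 9 genes are Lif, Cntf, Clcf1, Osm, Il6st, Lifr, Osmr, Stat3 and Socs3. They were taken by gene name from a table of 55323 rows, and all 9 have 1 row each. RNA sequencing of total RNA gave 2 libraries, 1 of cells in long culture in SCM, a medium named by this abbreviation alone, and 1 of cells in long culture in DMEM, a standard basal medium (the series design writes S-DEMEM). Cells of both libraries carry the TTR V30M transgene, a human transthyretin variant of hereditary amyloidosis, and come from 1 cell line, so neither library is a control without the transgene. As each medium had 1 library, the spread between cultures is unknown and p-values were not computed. Over all rows the reads came to 36666676 in SCM and 29085791 in DMEM.

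The gp130 protein, the product of Il6st, is a signalling receptor chain shared by the interleukin-6 family. LIF acts through gp130 and the LIF receptor. CNTF and CLCF1 act through the same pair with the CNTF receptor alpha chain, and mouse oncostatin M acts mainly through gp130 and its own receptor chain. Janus kinases bound to the receptors phosphorylate STAT3, which enters the nucleus and induces its own inhibitor SOCS3. In peripheral nerve, CNTF is known as a factor of mature myelinating Schwann cells, and LIF and STAT3 are known from the response of Schwann cells to injury.

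The pathway was present in part. Both libraries held reads of a ligand gene at more than 10 FPKM (a read level scaled to gene length and library size), namely Clcf1, and of the shared receptor gene Il6st. The ligand gene Osm and the receptor gene Osmr had 0 reads in both libraries, and Cntf and Lifr lay under 1 FPKM. In SCM the Clcf1 level was lower than in DMEM, and those of Lif, Lifr, Stat3 and Socs3 were higher by smaller or less precise ratios. Rows were compared by the log2 ratio of SCM over DMEM after 1 FPKM was added to each level. Rows that reached 1 FPKM in either library counted as measured, and a row was called at 2-fold on that scale. Of the 9 genes, 5 passed this filter (Lif, Clcf1, Il6st, Stat3 and Socs3), and 0 of the 5 were called. Of all 12334 measured rows, 5.89% were called, 3.10% as higher and 2.80% as lower in SCM. Among the 10081 protein-coding rows 3.92% were called. At such a background a count of 0 of 5 is no result about these genes.

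**Figure D1:**
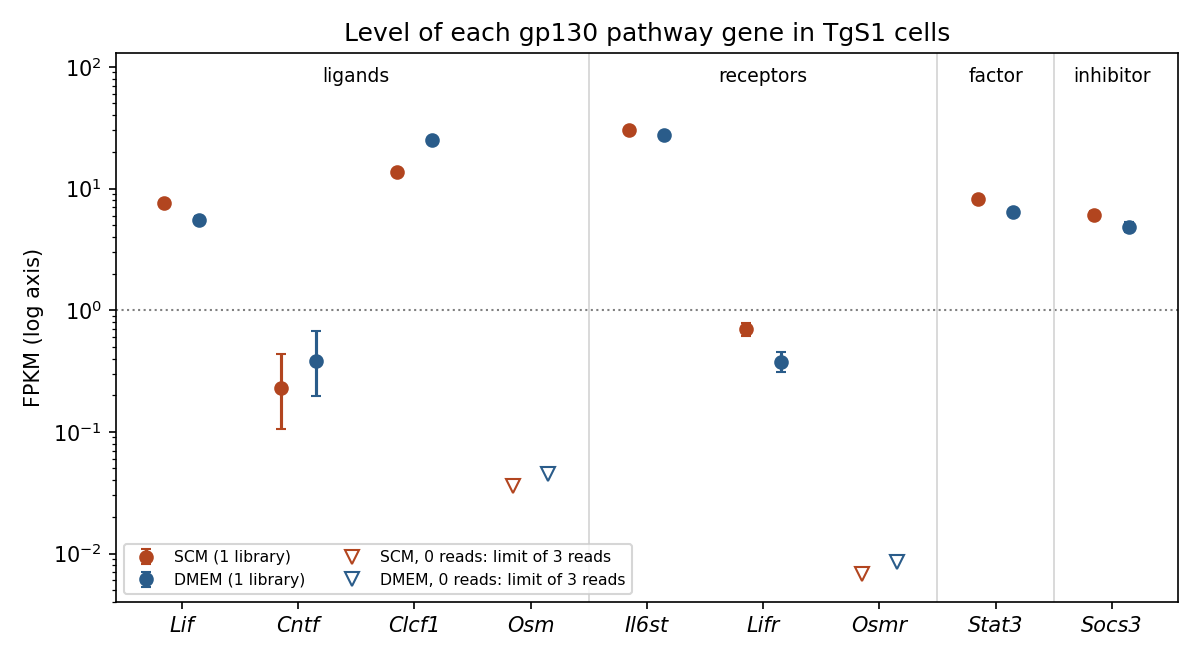
FPKM of the 9 genes on a log axis, grouped by role, with SCM to the left of DMEM (1 library each). Circles carry 95% Poisson counting intervals, open triangles mark the level that 3 reads would give where a gene had 0 reads, and the dotted line is the filter of 1 FPKM. Clcf1 and Il6st lie above 10 FPKM in both media, and Cntf, Lifr, Osm and Osmr lie below the line in both.

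Among the ligands, Clcf1, which encodes cardiotrophin-like cytokine factor 1, had the highest level. It had 13.8 FPKM (1924 reads) in SCM and 25.3 FPKM (2798 reads) in DMEM. It was thus lower in SCM, with a ratio of 0.545 and a 95% exact (Clopper-Pearson) interval of 0.514 to 0.578, which is 1.83-fold lower (1.73 to 1.94). Intervals here come from the reads of both libraries and cover counting error only, and amplified reads are not independent molecules. A lower level of a transcript and a smaller share of cells that carry it cannot be told apart in these bulk libraries. On the scale with the pseudocount the log2 ratio of Clcf1 was -0.83, just inside the 2-fold limit and past a limit of 1.5-fold. It ranked 492 from the lowest of the 12334 measured rows. Its rank was 122 from the lowest among the 5850 protein-coding rows that reached 5 FPKM in SCM and in DMEM, whose log2 ratios lay between -0.76 and 0.80 for the central 95%. By level, Clcf1 ranked 3198 in SCM and 1714 in DMEM among all rows. The gene (ENSMUSG00000040663) lies on chromosome 19 at 4214238 to 4223490, plus strand, with 5 annotated transcripts. These and the positions that follow are those of GENCODE M21 on GRCm38, matched by gene identifier. A row of the same strand, Gm45928, shares 311 of its exonic bases and had 1 read in SCM and 0 in DMEM.

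Lif, which encodes leukaemia inhibitory factor, differed from Clcf1 in direction. Its level was 7.62 FPKM (1216 reads) in SCM and 5.48 FPKM (693 reads) in DMEM. The ratio was 1.39 (1.27 to 1.53) and the log2 ratio 0.41, the highest of the 5 measured genes. Lif (ENSMUSG00000034394) lies on chromosome 11 at 4257557 to 4272514, plus strand, and shared no exonic base with another row. Set per gene length within each library, Clcf1 exceeded Lif 1.81 times (1.68 to 1.94) in SCM and 4.61 times (4.24 to 5.02) in DMEM. The counting intervals of these 2 quotients do not overlap, and Clcf1 was the higher of both ligand genes in either medium.

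Cntf, the ciliary neurotrophic factor gene, was close to the limit of detection. It had 0.229 FPKM (9 reads) in SCM and 0.385 FPKM (12 reads) in DMEM, and the interval of the ratio, 0.221 to 1.54, held 1. A difference was not detectable at this depth. Most of the Cntf row (ENSMUSG00000079415, chromosome 19 at 12763660 to 12765632, minus strand) is also part of another row. Of its exonic bases, 78.9% lie in Gm44505 on the same strand, which had 0 reads in both libraries. Of its 50-base words, 78.0% also occur in annotated transcripts of other genes, most often the neighbour Zfp91. The sources used here do not say how reads in such stretches were assigned, and the Cntf level is uncertain.

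Osm, the oncostatin M gene, is known mainly as a product of myeloid cells. It had 0 reads in both libraries, where 3 reads would give 0.0360 FPKM in SCM and 0.0454 FPKM in DMEM. The row (ENSMUSG00000058755) lies beside Lif on chromosome 11, at 4236420 to 4241026 on the plus strand. Thus of the 4 ligand genes, 2 were measured and 1 had no read.

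The receptor side was led by Il6st, the gp130 gene itself. It had 30.4 FPKM (12389 reads) in SCM and 27.3 FPKM (8807 reads) in DMEM, the highest level of the 9 genes in SCM and in DMEM. The ratio was 1.12 (1.09 to 1.15), and the log2 ratio of 0.15 was the nearest to 0 of the 5 measured genes. It ranked 1312 by level in SCM and 1558 in DMEM. The gene (ENSMUSG00000021756) lies on chromosome 13 at 112464070 to 112510086, plus strand, with 10 annotated transcripts over 11099 exonic bases, the same length as in the deposited table.

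Lifr, the LIF receptor gene, stood far below Il6st. It had 0.699 FPKM (276 reads) in SCM and 0.376 FPKM (118 reads) in DMEM, under the filter in both. In plain FPKM it was 1.86-fold higher in SCM (1.49 to 2.32), the highest ratio among the 7 genes with reads, although the pseudocount brought the log2 ratio to 0.30. Per gene length, Il6st exceeded Lifr 43.6 times (38.7 to 49.3) in SCM and 72.5 times (60.4 to 87.7) in DMEM. Of the 2 chains of the LIF receptor, the LIF-binding one was therefore the less abundant transcript in both libraries. Lifr (ENSMUSG00000054263) lies on chromosome 15 at 7090614 to 7197489, plus strand.

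Osmr encodes the oncostatin M receptor chain. It had 0 reads in both libraries over a row of 12113 bases, which allows up to 0.00675 FPKM in SCM and 0.00852 FPKM in DMEM. These are the lowest limits among the 9 genes, since the limit falls with gene length. Osmr (ENSMUSG00000022146) lies on chromosome 15 at 6813577 to 6874969, minus strand. Reads of Osm and of Osmr were thus not detected in either medium.

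**Figure D2:**
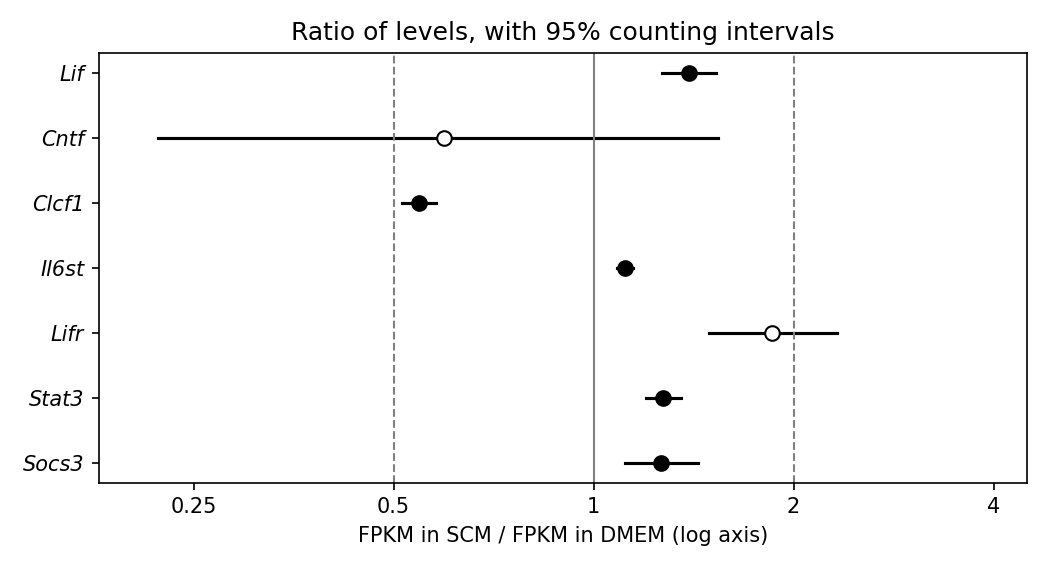
Plain FPKM ratio of SCM over DMEM on a log axis for the 7 genes with reads, with 95% exact counting intervals as bars. Filled circles mark the 5 measured genes, open circles Cntf and Lifr, and dashed lines a ratio of 0.5 and of 2. Clcf1 lies left of 1, the Cntf interval holds 1, and the other 5 genes lie right of 1 with intervals that exclude it.

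Stat3, the transcription factor gene, had 8.18 FPKM (2858 reads) in SCM and 6.42 FPKM (1779 reads) in DMEM. The ratio was 1.27 (1.20 to 1.35) and the log2 ratio 0.31. The gene (ENSMUSG00000004040) lies on chromosome 11 at 100885098 to 100939540, minus strand, with 14 annotated transcripts. It shares 72 exonic bases with Stat5a on the opposite strand.

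Socs3, the feedback inhibitor gene and a direct STAT3 target, had 6.08 FPKM (645 reads) in SCM and 4.82 FPKM (405 reads) in DMEM. The ratio was 1.26 (1.11 to 1.43) and the log2 ratio 0.28. Stat3 and Socs3 kept nearly the same proportion to each other, with Stat3 above Socs3 1.34 times (1.23 to 1.47) in SCM and 1.33 times (1.20 to 1.49) in DMEM. Socs3 (ENSMUSG00000053113) lies on chromosome 11 at 117966079 to 117970047, minus strand. Intervals excluded 1 for 6 of the 9 genes, namely all 5 measured genes and Lifr. Such intervals were common at this depth: 70.3% of measured protein-coding rows had one.

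STAT dimers are known to bind the word TTCNNNGAA, which reads the same on both strands. RefSeq promoters on GRCm38.p6 were matched by symbol for 7 of the 9 genes (8 promoters, 2 of them of Lifr), and the 250 bases before the annotated start were searched. The word was found in 1 of the 8, that of Socs3, and in 7.02% of all 32851 promoters of the same length. The promoter of Socs3 is shown with the word in capitals, from 154 to 146 bases before the start, and those of the factor gene Stat3 and of the receptor gene Il6st are shown beside it and hold none. They lie at chr11:117969367-117969616 and chr11:100939541-100939790 on the minus strand and chr13:112463820-112464069 on the plus strand. GENCODE M21 starts Socs3 further upstream than RefSeq, and its noncoding transcript has an exon inside the Socs3 window. A match is a description of the letters and not a bound site.
Socs3: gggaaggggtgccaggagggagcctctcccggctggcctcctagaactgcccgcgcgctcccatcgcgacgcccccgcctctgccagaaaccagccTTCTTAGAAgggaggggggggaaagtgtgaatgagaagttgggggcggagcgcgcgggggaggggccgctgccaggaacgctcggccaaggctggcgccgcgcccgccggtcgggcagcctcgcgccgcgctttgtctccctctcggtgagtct
Stat3: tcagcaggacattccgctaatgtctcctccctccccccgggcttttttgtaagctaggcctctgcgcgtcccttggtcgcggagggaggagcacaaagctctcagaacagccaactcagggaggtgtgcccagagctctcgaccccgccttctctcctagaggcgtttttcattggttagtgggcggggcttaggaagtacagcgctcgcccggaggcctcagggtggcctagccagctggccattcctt
Il6st: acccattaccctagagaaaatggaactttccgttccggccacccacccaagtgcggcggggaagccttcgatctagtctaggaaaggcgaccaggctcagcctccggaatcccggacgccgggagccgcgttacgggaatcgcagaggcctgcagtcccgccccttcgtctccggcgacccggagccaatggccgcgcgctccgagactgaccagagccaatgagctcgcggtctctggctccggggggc

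The pattern of a gene over 2 libraries is no more than its pair of levels. By that measure, the protein-coding rows nearest to Clcf1 were Eprs, at 13.8 FPKM in SCM and 25.6 in DMEM, and Txnrd1, at 13.7 and 26.3 FPKM in the same order of media. Nearest to Lif were Fmn2, at 7.73 FPKM in SCM and 5.55 in DMEM, and Rnf215, and nearest to Stat3 were Gatd3a and Fuca2. The distance was taken over both log2(FPKM + 1) values among 9866 named rows.

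Of the other genes of the pathway outside the STAT3 targets, 30 of 44 were measured. Once 1 FPKM was added to each level, 0 of them were 2-fold apart. Their median log2 ratio was -0.06, beside -0.03 for all measured rows. Among other ligands of the family, the genes Il6, Ctf2, Il27, Ebi3 and Il31 had 0 reads in both libraries, and Il11 had 0 reads in SCM and 9 in DMEM.

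Ligand-binding receptor chains of the family were measured for 3 of 5 genes. Il6ra, the interleukin-6 receptor alpha gene, had 8.75 FPKM (2774 reads) in SCM and 5.21 FPKM (1310 reads) in DMEM, a ratio of 1.68 (1.57 to 1.80). Cntfr, the CNTF receptor alpha gene that CLCF1 also needs, had 1.84 FPKM in SCM and 1.77 FPKM in DMEM, and the interval of its ratio (0.835 to 1.31) held 1. Il11ra1, the interleukin-11 receptor gene, had 2.79 FPKM in SCM and 3.61 FPKM in DMEM. Of its 50-base words 46.3% occur in transcripts of other genes, most often Gm13305, so its level is uncertain. Il6st exceeded each of these chains in both libraries, Il6ra 3.48 times in SCM and 5.23 times in DMEM, and Cntfr 16.5 times in SCM and 15.4 times in DMEM.

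The Janus kinases differed in direction. Jak1, the main kinase of gp130 signalling, had 34.7 FPKM (9206 reads) in SCM and 57.0 FPKM (11973 reads) in DMEM, a ratio of 0.610 (0.594 to 0.627). Jak2 had 24.4 FPKM (4506 reads) in SCM and 16.3 FPKM (2392 reads) in DMEM, a ratio of 1.49 (1.42 to 1.57). Jak1 thus exceeded Jak2 1.42 times (1.37 to 1.47) in SCM and 3.48 times (3.33 to 3.64) in DMEM. Both kinases stayed within 2-fold, as did Tyk2, and Jak3 was under the filter.

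Of 6 other STAT genes 5 were measured, with a median log2 ratio of 0.28 and 4 of 5 above 0, where 45.8% of all measured rows lay above 0. Stat6, known from interleukin-4 signalling, was the most abundant of them, at 55.4 FPKM in SCM and 53.4 FPKM in DMEM, and exceeded Stat3 6.77 times in SCM and 8.32 times in DMEM. Stat5b had 8.72 FPKM in SCM and 6.42 FPKM in DMEM, and shares part of its sequence with its paralogue Stat5a. Of 14 other inhibitor genes 11 were measured, with 3 above 0, 8 below and a median of -0.11, beside -0.03 and the same 45.8% for all measured rows. The most abundant were Socs4, at 20.3 FPKM in SCM and 23.1 FPKM in DMEM, and Pias4, at 19.8 FPKM in SCM and 25.5 FPKM in DMEM. Socs1, an inhibitor of Janus kinases closely related to Socs3 and named after its values were seen, was lower in SCM where Socs3 was higher. It had 0.563 FPKM (60 reads) in SCM and 1.41 FPKM (119 reads) in DMEM, a ratio of 0.400 (0.288 to 0.550).

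The arm that links gp130 to ERK through the phosphatase SHP2 was measured in full, with 7 of 7 genes, 0 of them called and a median of -0.15. Ptpn11, which encodes SHP2, had 26.9 FPKM in SCM and 25.4 FPKM in DMEM. Grb2, an adaptor gene, had 31.9 FPKM in SCM and 45.2 FPKM in DMEM.

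**Figure D3:**
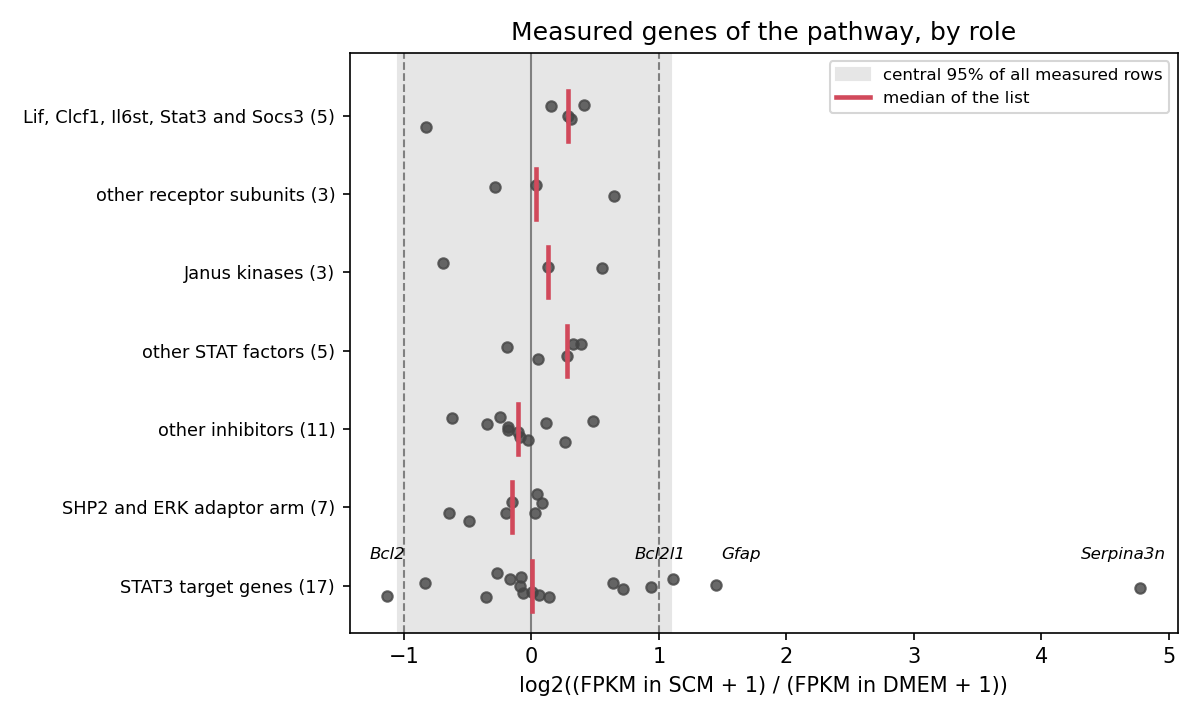
The log2 ratio of SCM over DMEM, with a pseudocount of 1 FPKM, of each measured gene (points, spread vertically for legibility) by role, with the number of measured genes in brackets and without the other ligands. Red bars are list medians, the grey band is the central 95% of all 12334 measured rows, -1.05 to 1.10, and dashed lines mark 2-fold. Outside the STAT3 targets every point lies within 2-fold.

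Known target genes of STAT3 did not share a direction. Of 28 listed genes 17 were measured, 3 were at least 2-fold higher, 1 was lower and the median was 0.01, with 9 above 0 and 8 below. Of all measured rows 5.89% were called and 45.8% lay above 0. Serpina3n, a serine protease inhibitor gene of the acute phase, had 174 FPKM (13173 reads) in SCM and 5.40 FPKM (324 reads) in DMEM, a ratio of 32.3 (28.9 to 36.1). Of its 50-base words 6.90% occur in transcripts of other genes, most often Serpina3e-ps. Gfap, an intermediate filament gene of astrocytes and non-myelinating Schwann cells, had 3.17 FPKM (491 reads) in SCM and 0.530 FPKM (65 reads) in DMEM, a ratio of 5.99 (4.62 to 7.89). These 2 genes are among the largest differences already known for these libraries and are not independent support for any reading of the pathway.

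The survival genes Bcl2l1 and Bcl2 passed 2-fold in opposite directions. Bcl2l1, which encodes BCL-XL, had 44.1 FPKM (7414 reads) in SCM and 19.9 FPKM (2657 reads) in DMEM, 2.21-fold higher in SCM (2.12 to 2.31). Bcl2 had 2.80 FPKM (940 reads) in SCM and 7.32 FPKM (1949 reads) in DMEM, 2.61-fold lower (2.42 to 2.83). Mcl1, a further gene of that family, had 46.2 FPKM in SCM and 44.2 FPKM in DMEM. Ccnd1, the cyclin D1 gene and the most abundant of the list, had 211 FPKM in SCM and 128 FPKM in DMEM, a ratio of 1.65 (1.62 to 1.68), and 21.6% of its 50-base words are shared, mostly with the neighbour LTO1 on the opposite strand.

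Of Fos, Myc, Junb, Cebpb and Cebpd, early response targets named after their values were seen, Fos and Myc had intervals that excluded 1. Fos had 32.0 FPKM in SCM and 57.9 FPKM in DMEM, 1.81-fold lower (1.72 to 1.90). Myc had 3.49 FPKM in SCM and 4.75 FPKM in DMEM, 1.36-fold lower (1.17 to 1.58). Junb had 14.2 FPKM in SCM and 15.1 FPKM in DMEM, Cebpb 23.7 FPKM in SCM and 24.8 FPKM in DMEM, and Cebpd 3.60 FPKM in SCM and 3.18 FPKM in DMEM. The intervals of these 3 ratios held 1, and all 3 genes share exonic bases with a gene on the opposite strand. The kinase gene Pim3 was also named after its values were seen. It had 5.56 FPKM (495 reads) in SCM and 2.42 FPKM (171 reads) in DMEM. In plain FPKM it was 2.30-fold higher (1.93 to 2.75), and on the scale with the pseudocount its log2 ratio was 0.94. Pim1 of the same list lay under the filter, and the interval of its ratio (0.768 to 1.77) held 1. The acute phase and inflammation genes Lcn2, Steap4, Saa3 and A2m had 0 reads in both libraries.

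**Figure D4:**
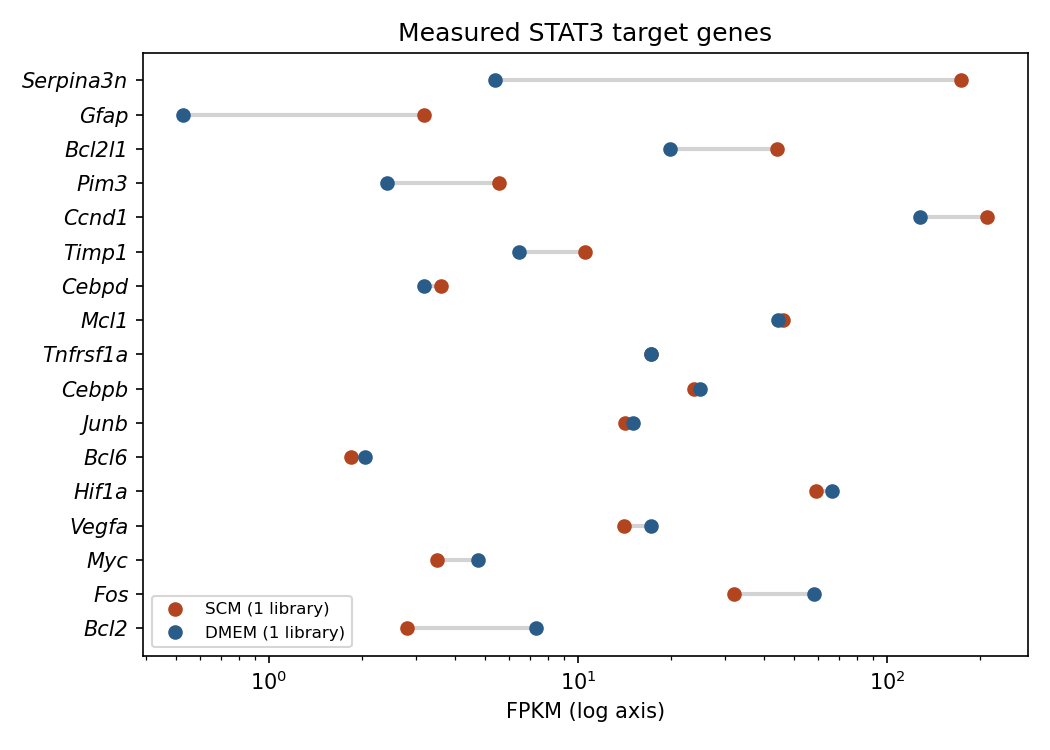
FPKM on a log axis of the 17 measured STAT3 target genes in SCM and DMEM (1 library each), ordered by log2 ratio with the highest at the top. Serpina3n, Gfap and Bcl2l1 lie at the top and Bcl2 at the bottom, and these 4 are the genes at least 2-fold apart once 1 FPKM is added to each level.

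The label of a Schwann cell line was checked against marker genes. All 10 Schwann cell markers were measured, 8 of them above 5 FPKM in both media, with a summed level of 3971 FPKM in SCM and 4129 FPKM in DMEM. Among macrophage markers, which matter here as a source of Osm, 1 of 10 was measured and 5 had 0 reads in both. They summed to 1.51 FPKM in SCM and 1.44 FPKM in DMEM, of which Cd68 had 1.45 FPKM in SCM and 1.34 FPKM in DMEM. Fibroblast markers summed to 3.10 FPKM in SCM and 3.28 FPKM in DMEM, with 5 of 10 at 0 reads in both. Slc2a1 alone of them was measured, at 3.02 FPKM in SCM and 3.10 FPKM in DMEM. Endothelial markers summed to 0.345 FPKM in SCM and 1.17 FPKM in DMEM, and T cell ones to 0 FPKM in SCM and 0.138 FPKM in DMEM. Mural cell markers summed to 146 FPKM in SCM and 193 FPKM in DMEM, with 3 of 10 measured (Mcam, Pdgfrb and Cspg4) and 3 at 0 reads in both. Of these, Cspg4 had 1.84 FPKM (804 reads) in SCM and 0.314 FPKM (109 reads) in DMEM. Neuronal markers summed to 45.4 FPKM in SCM and 60.7 FPKM in DMEM, with Tubb3 alone measured and 4 of 10 at 0 reads in both. The part of these markers in the levels of the gp130 genes was not tested.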

How the data were processed

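Libraries were prepared from total RNA with a stranded SMARTer kit, per the labels' protocols, and a conversion kit for DNBSEQ. Sample titles gave the groups, and each column was matched by the medium in its name. The authors deposited FPKM values for 55323 rows with gene lengths, per the file headers. Tools listed by the submitters' processing notes are STAR 2.7.9a, featureCounts 2.0.1, Trimmomatic 0.39, Trim Galore and cutadapt 3.1, with GRCm38.p6 and mm10 as builds. Their parameters and the strand setting were not stated in the sources at hand.

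FPKM times length gave whole reads in 100% of rows (tolerance 0.01 read) in both libraries. For all 9 genes the length in the table equals that of GENCODE M21, whereas its coordinates have the same spans at other positions, so positions are printed from GENCODE M21. Ratios carry 95% exact intervals of the reads, and the floor is 3 reads. No count model was fitted with 1 library per medium. The interval and call steps were tested on reads simulated with counting error alone. That test cannot speak to spread between cultures or to amplified reads. Shared sequence was measured as 50-base words of GENCODE M21 transcripts, on both strands.

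The genes and lists were chosen with earlier results of these data known. Besides the 9 genes, the rule named list members at least 2-fold apart, the 2 most abundant measured genes of each list and, for the 3 genes with the largest log2 ratio in size, the 2 nearest rows. Of these, 1 gene is not reported here. Python 3.11.15, numpy 2.4.6, pandas 2.3.3, scipy 1.17.1 and matplotlib 3.10.9 were used.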

Additional observations from a re-analysis of the deposited data

How the results depend on the processing

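All 40 recomputed log2 ratios of the 7 genes with reads kept their sign under other pseudocounts, filters and scalings, and Clcf1 ranged from -0.93 to -0.75. A pseudocount or a filter cannot change a sign, so only the rescaled and TPM values could have done so. None of the genes was 2-fold apart under 7 of the alternatives, and 1 (Clcf1, lower) was past the 1.5-fold threshold. Among the 7, a pseudocount of 3 FPKM, a filter of 5 FPKM and a demand that the counting interval exclude 1 could not add calls. Removal of the filter could not either, since a row under 1 FPKM in both libraries stays within 2-fold once 1 FPKM is added. The 4 calls among the other pathway genes became 7 with a pseudocount of 0.1 FPKM, 2 with a pseudocount of 3 FPKM (Bcl2l1 and Serpina3n), 8 in TPM and 13 at the 1.5-fold threshold. The 727 calls among all rows became 1306 with a pseudocount of 0.1 FPKM, 279 with 3 FPKM, 375 with a filter of 5 FPKM, 2156 in TPM, 1902 at 1.5-fold and 395 in protein-coding rows only. A pseudocount and a filter act by construction on low rows. In TPM, where 1 FPKM is 4.04 in SCM and 4.22 in DMEM, the added 1 and the filter of 1 are also smaller, and 16603 rows were tested in place of 12334. Rescaling by the median ratio, a log2 of -0.03, changed no call of these genes. Depth limits Cntf, whose level is also uncertain because of shared sequence. Osm and Osmr had 0 reads in both libraries and so no ratio, and the filter of 1 FPKM keeps out Lifr. No paired analysis was possible because there was 1 library per medium, and no library could be left out.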

Other observations

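The deposited table annotates 292 rows with the process term of cellular response to leukaemia inhibitory factor, a set taken after the values were seen. Of these, 100 were measured, 1 was at least 2-fold higher in SCM and 7 were lower, where 5.89% of all measured rows were called, and the median log2 ratio was -0.07, beside -0.03 for all measured rows. The higher gene was Spp1, which encodes the secreted phosphoprotein osteopontin, at 9.75 FPKM (589 reads) in SCM and 2.25 FPKM (108 reads) in DMEM, a ratio of 4.33 (3.52 to 5.36). All 7 lower rows were microRNA genes, and for 3 of them (Mir149, Mir325 and Mir335) the counting interval of the ratio held 1. Mir29a had 55 reads in SCM and 120 in DMEM, and the other 6 had 0 to 9 reads in SCM and 6 to 29 in DMEM. Among 27 rows of the JAK-STAT cascade term, 17 passed the filter, none of them past 2-fold (0 calls), and their median was 0.05.

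Some STAT3 targets under 1 FPKM, also named after their values were seen, had reads mainly in 1 library. Bcl3, a regulator of NF-kappa-B, had 32 reads in SCM and 1 in DMEM, a ratio of 25.4 (4.24 to 1034). Cp, the ceruloplasmin gene, had 77 reads in SCM and 5 in DMEM, a ratio of 12.2 (5.01 to 38.7). The adhesion gene Icam1 went the other way, with 0 reads in SCM and 14 in DMEM. Other targets under 1 FPKM had reads in both libraries. Pim1 had 60 reads in SCM and 41 in DMEM, Il4ra 57 in SCM and 34 in DMEM, and Birc5 97 in SCM and 49 in DMEM. Fgg had 0 reads in SCM and 3 in DMEM. How common reads mainly in 1 library are among all rows under 1 FPKM was not computed.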
